A study of Mus musculus with 4 samples.

Results

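The tumor cells of MC38 tumors that carried collagen VI or Edil3 transcripts were examined with single-cell RNA sequencing (scRNA-seq). A tumor cell was a cell with at least 5000 unique molecular identifiers (UMIs, counted RNA molecules), at least 2 UMIs of Hmga2 and Tm4sf1 together, at least 2 UMIs of Rhox5 and Prl2c2 together, and 0 UMIs of Ptprc, Pecam1 and Pdgfra, which mark immune cells, endothelial cells and fibroblasts. The 10% of these cells with the largest fraction of Ifit1, Ifit3 and Rsad2 UMIs were left out, which took 324 of 3243 cells. Members were the cells with at least 3 UMIs of Edil3, Col6a1 and Col6a2 together, and they numbered 798 of 2919 retained tumor cells (27.3%) and of 33228 cells in all. The other 2121 retained tumor cells, with 0 to 2 of these UMIs, are the nearest comparison and are called other tumor cells. Members were thus chosen by their UMIs of Edil3, Col6a1 and Col6a2, and the levels of Edil3, Col6a1 and Col6a2, of the other genes in the rule and of members against other tumor cells are descriptions.

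MC38 is a colon adenocarcinoma line of C57BL/6 mice, and the cells were implanted under the skin of such mice. Their RAC1, a GTPase that drives actin remodeling, was wild type (WT) or had the substitution A159V, knocked in at the endogenous gene with CRISPR-Cas9 in a homozygous clone, so that the substitution and the clone cannot be told apart. Tumor-bearing mice received an antibody to the checkpoint receptor PD1 (anti-PD1) or its isotype control (IgG), which gave WT IgG and WT anti-PD1 tumors, and A159V tumors with IgG or with anti-PD1. Each of these 4 groups was 1 library, and the labels do not say how many mice a library held, so no test between groups was possible, and every interval below is a 95% interval for counting error only. Leukocytes (CD45+) and the remaining CD45− cells had been enriched on beads and pooled again in a set proportion before loading, so the fraction of members among all cells depends on the mixing and is not given.

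Collagen VI is a heterotrimer of an α1, an α2 and, most often, an α3 chain, encoded by Col6a1, Col6a2 and Col6a3. Its tetramers join end to end into beaded microfilaments that lie close to basement membranes and around cells, where they bind fibronectin, collagen IV, decorin and integrins. Edil3 encodes EDIL3, also called DEL-1, a secreted matrix protein with an RGD motif for αv integrins and discoidin domains that bind phosphatidylserine, and it is known as an endothelial product that restrains leukocyte adhesion. Fibroblasts are the usual source of collagen VI in tumors.

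Col6a1 (ENSMUSG00000001119) spans 76708792 to 76726168 on chromosome 10 of GRCm38, and Col6a2 (ENSMUSG00000020241) spans 76595762 to 76623630 beside it, both on the minus strand. Col6a3 (ENSMUSG00000048126) lies at 90765923 to 90843971 on the minus strand of chromosome 1, and Edil3 (ENSMUSG00000034488) at 88821472 to 89323223 on the plus strand of chromosome 13. All are protein-coding genes, with positions from GENCODE M21. The promoter sequences of the 3 collagen VI genes are shown because these genes encode its usual chains. Col6a1 and Col6a2 were higher in members by the rule, and only Col6a3 was outside it. They are the 250 bases before each start, 5′ to 3′ on the gene's strand, taken from RefSeq on GRCm38.p6: chr10:76726045-76726294 for Col6a1, chr10:76623405-76623654 for the first start of Col6a2 and chr1:90843972-90844221 for Col6a3, all on the minus strand. Capitals mark matches, on either strand, to any of 4 motifs. These were TGANTCA for AP-1, GGGCGG for the GC box, TATAAA for the TATA box and CCAAT for the CCAAT box.
Col6a1: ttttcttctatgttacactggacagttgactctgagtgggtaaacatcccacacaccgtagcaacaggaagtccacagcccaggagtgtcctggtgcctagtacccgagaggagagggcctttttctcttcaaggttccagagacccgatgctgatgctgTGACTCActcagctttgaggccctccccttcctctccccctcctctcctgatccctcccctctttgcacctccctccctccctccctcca
Col6a2: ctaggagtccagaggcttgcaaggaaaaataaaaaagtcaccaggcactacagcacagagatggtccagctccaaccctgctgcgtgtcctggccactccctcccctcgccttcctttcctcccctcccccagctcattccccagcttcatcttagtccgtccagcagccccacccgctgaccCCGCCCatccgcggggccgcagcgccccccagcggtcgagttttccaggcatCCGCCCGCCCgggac
Col6a3: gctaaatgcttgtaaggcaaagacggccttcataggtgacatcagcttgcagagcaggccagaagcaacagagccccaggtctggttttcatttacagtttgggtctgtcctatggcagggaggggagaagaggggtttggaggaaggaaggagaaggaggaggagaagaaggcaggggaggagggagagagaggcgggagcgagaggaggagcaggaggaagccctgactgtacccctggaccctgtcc
The Col6a1 window held 1 AP-1 motif, 90 to 84 bases before the start. The Col6a2 window held 3 GC boxes, 67 to 62, 15 to 10 and 11 to 6 bases before the start, the last 2 overlapping by 2 bases. The Col6a3 window held none of the 4 motifs. Of 32851 mouse promoter windows of this length, 6.75% held the AP-1 motif, 32.7% the GC box, 12.4% the TATA box and 33.8% the CCAAT box. These matches describe letters and not bound sites.

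Tumor and fibroblast genes were measured in members beside the cells they mark. Rhox5, a homeobox gene of the germline that MC38 cells express, was at 995 CPM in WT IgG, 1120.0 CPM in A159V IgG and 1011 CPM in A159V anti-PD1 in members, and at 952 CPM in WT IgG, 1096 CPM in A159V IgG and 1067 CPM in A159V anti-PD1 in other tumor cells. Hmga2, an architectural chromatin protein of embryonic and tumor cells, was at 76.6 CPM in WT IgG, 67.4 CPM in A159V IgG and 90.3 CPM in A159V anti-PD1 in members, and at 74.4, 75.2 and 101 CPM in other tumor cells. CPM are UMIs of a gene per 1000000 UMIs, with all cells of a class added up. Both genes were part of the rule, so their levels are no check of the label. Rhox5 was also at 432, 682 and 576 CPM in immune cells (at least 2 Ptprc UMIs) of WT IgG, A159V IgG and A159V anti-PD1, and at 449, 562 and 545 CPM in cells with at least 2 Pdgfra UMIs outside the tumor gate, which is below members in every library but far from 0. The defining fibrillar collagens of fibroblasts were far lower in members than in fibroblast-marked cells, and they did not share an order across the libraries. Col1a1 was at 8.65 CPM in WT IgG, 31.4 CPM in A159V IgG and 3.98 CPM in A159V anti-PD1, against 6473, 7419.7 and 9996 CPM in the same cells with Pdgfra. Col1a2 was at 5.38 CPM in WT IgG, 22.4 CPM in A159V IgG and 6.06 CPM in A159V anti-PD1 in members. Col1a1 and Col1a2 were highest in A159V IgG members, and Col3a1 was highest in WT IgG members, at 80.9 CPM in WT IgG, 44.3 CPM in A159V IgG and 15.3 CPM in A159V anti-PD1. In WT IgG, 2 fibroblast markers reached 50 CPM, and Col3a1 was 1 of them. Both were over 2-fold higher in members than in other tumor cells.

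The markers of other cells were measured as lists. The summed level of 12 fibroblast markers was 344 CPM in members and 93.3 CPM in other tumor cells of WT IgG, 239 and 74.3 CPM in A159V IgG, and 101 and 68.6 CPM in A159V anti-PD1. Of the 12 markers, 11, 11 and 9 had a UMI in members, with Pdgfra at 0 by the rule and Lum at 3.14, 1.56 and 0.947 CPM. Dcn, which encodes decorin, made up most of the sum in every library, at 240.4 CPM in WT IgG, 130.1 CPM in A159V IgG and 66.8 CPM in A159V anti-PD1 members. The summed fibroblast markers were higher in members than in other tumor cells in all 3 libraries. Their part in the results was not tested beyond alternatives that left out cells with such UMIs. The 15 macrophage and monocyte markers summed to 114, 61.7 and 84.1 CPM in members and to 111, 60.7 and 89.0 CPM in other tumor cells, close to each other within each library. The lists of T and NK cell, B and plasma cell, neutrophil, and endothelial and pericyte markers each summed to at most 30.5 CPM in the members of these 3 libraries. Predicted doublets made up 6 of 475 members in WT IgG, 12 of 198 in A159V IgG and 2 of 117 in A159V anti-PD1, which is 1.26%, 6.06% and 1.71%, against 0.860%, 2.31% and 1.87% of other tumor cells. The excess lay in A159V IgG, and its part in the results of that library was not tested beyond leaving these cells out as an alternative.

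The 4 libraries held 7430 to 9311 cells and 54402632 to 125227747 UMIs, and mitochondrial UMIs were between 2.95% and 4.18% at the median in members of the 3 libraries compared. The WT anti-PD1 library stood apart, since only 13 of its 7430 cells were retained as tumor cells. Of these, 8 were members, and 6 of the 8 were predicted doublets. No comparison was made with this library, and its values are given only where they complete a series. In these 8 cells Rhox5 was at 380.4 CPM and the 12 fibroblast markers summed to 294 CPM. Between any pair of libraries 13 to 22 cell barcodes were shared, none of them carried by members in both.

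The first question was how often tumor cells of each group had at least 3 UMIs of Edil3, Col6a1 and Col6a2 together. A member need not carry both Edil3 and collagen VI. Members made up 57.6% (54.2 to 61.0) of retained tumor cells in WT IgG, or 475 of 824 cells, with an exact binomial interval. In A159V IgG they made up 15% (13.1 to 17.0), or 198 of 1322 cells, and for A159V anti-PD1 the fraction was 15.4% (12.9 to 18.2), or 117 of 760 cells. The fraction was thus lower in both A159V libraries than in WT IgG, and the A159V libraries lay within each other's intervals. Divided by the WT IgG fraction, that of A159V IgG was 0.26 (0.226 to 0.299, Katz interval). Divided by the A159V IgG fraction, that of A159V anti-PD1 was 1.03 (0.833 to 1.27), so no difference between them could be seen with these numbers of cells. With no replicate, the spread between tumors of 1 group is unknown.

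A count threshold favors deep cells, and free RNA in the droplets can give UMIs to cells that do not express a gene, so both were measured. Members and other tumor cells had median depths of 31348 and 33000 UMIs in WT IgG, 35149.5 and 31519.5 in A159V IgG, and 42435 and 42028 in A159V anti-PD1. Between 20000 and 40000 UMIs the fraction of members was 59.1% in WT IgG, 13.7% in A159V IgG and 15.2% for A159V anti-PD1, so WT IgG was also the highest at matched depth. Immune cells, taken as cells with at least 2 Ptprc UMIs and at least 5000 UMIs, should lack collagen VI. At least 3 UMIs of the same 3 genes were present in 16.4% (14.3 to 18.6) of them in WT IgG, 11.4% (8.97 to 14.3) in A159V IgG and 7.11% (5.68 to 8.77) for A159V anti-PD1, at median depths of 7666, 8838 and 7240 UMIs. All cells were then thinned to 5000 UMIs each. Thinned tumor cells reached 3 UMIs in 24.2% (21.3 to 27.2) of WT IgG, 2.19% (1.47 to 3.14) of A159V IgG and 1.71% (0.914 to 2.91) of A159V anti-PD1. Thinned immune cells reached 3 UMIs in 8.14% (6.64 to 9.85), 3.92% (2.5 to 5.83) and 2.49% (1.66 to 3.58). At equal depth the fraction in WT IgG was above that in immune cells, and the fractions in both A159V libraries were at or below it. Immune cells were much shallower than tumor cells before thinning, so they are not a matched measure of free RNA in tumor cells. How much of these fractions was free RNA could not be told. After thinning, the A159V IgG fraction divided by that of WT IgG was 0.0908 (0.0621 to 0.133).

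**Figure D1:**
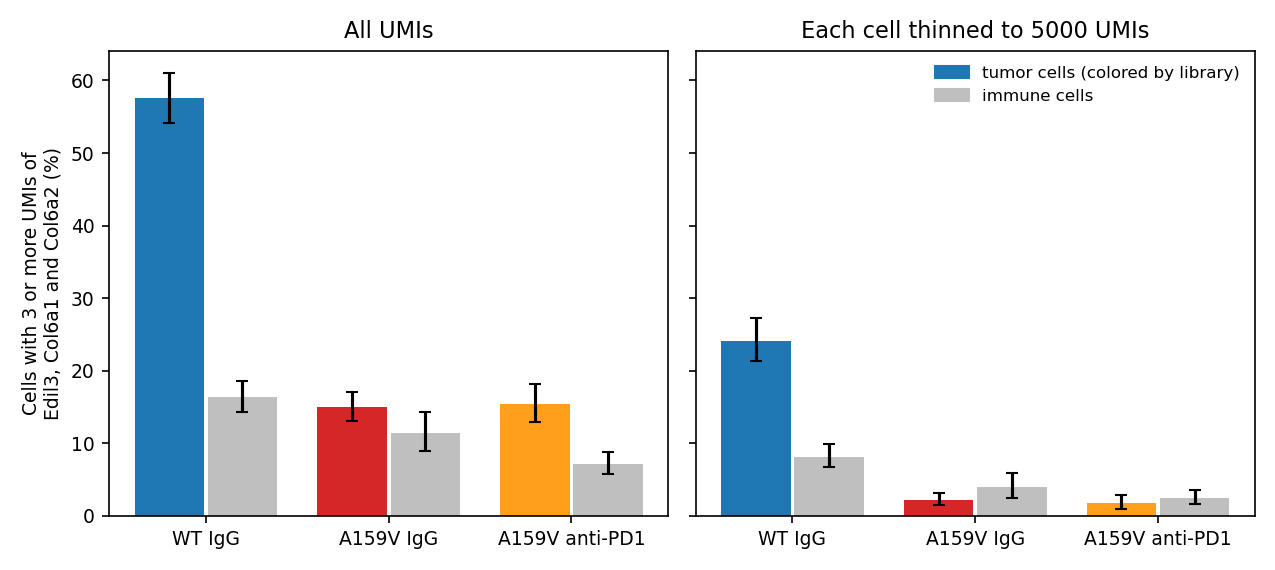
Tumor cells (colored bars) and immune cells (grey bars) with at least 3 UMIs of Edil3, Col6a1 and Col6a2, in percent of the class, from all UMIs (left) and after each cell was thinned to 5000 UMIs (right), with exact binomial 95% intervals. WT IgG tumor cells stood at 57.6% and 24.2%, above its immune cells in both panels, while thinned A159V tumor cells stood at 2.19% and 1.71%.

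The distribution of the 3 genes differed in shape between the genotypes. In WT IgG, 18.8% of retained tumor cells had no UMI of the 3 genes and 34.8% had 9 or more. In A159V IgG, 60.8% had none and 4.31% had 9 or more, and A159V anti-PD1 had 57.6% and 5.0% at these ends. The remaining WT IgG cells had 1 to 8 UMIs, and the class of 9 or more is open and reached 128. Among the values 0 to 8, 0 was the most frequent in all 3 libraries, and only in WT IgG was the open class larger. Members held a median of 11 UMIs of the 3 genes in WT IgG, 5 in A159V IgG and 6 for A159V anti-PD1, with highest values of 128, 44 and 41. Cells just inside the threshold, with 3 UMIs, numbered 41, 57 and 25 in these libraries, and cells just outside, with 2 UMIs, numbered 81, 84 and 55. Col6a3 was at 53.6 CPM just inside and 36.5 CPM just outside in WT IgG, 56.7 and 54.8 CPM in A159V IgG, and 79.4 and 42.5 CPM in A159V anti-PD1. Prl2c2 was at 224 CPM just inside and 384 CPM just outside in WT IgG, 384 and 447 CPM in A159V IgG, and 741 and 646 CPM in A159V anti-PD1. Ccl2 was at 898 CPM just inside and 704 CPM just outside in WT IgG. It was at 1339.9 and 349 CPM in A159V IgG, and at 933 and 1095 CPM in A159V anti-PD1. Ccl7 was at 45.5 and 30.8 CPM in WT IgG, 74.6 and 4.48 CPM in A159V IgG, and 21.9 and 32.2 CPM in A159V anti-PD1. Both chemokines thus differed widely across the threshold in A159V IgG only, and their order was opposite in A159V anti-PD1.

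**Figure D2:**
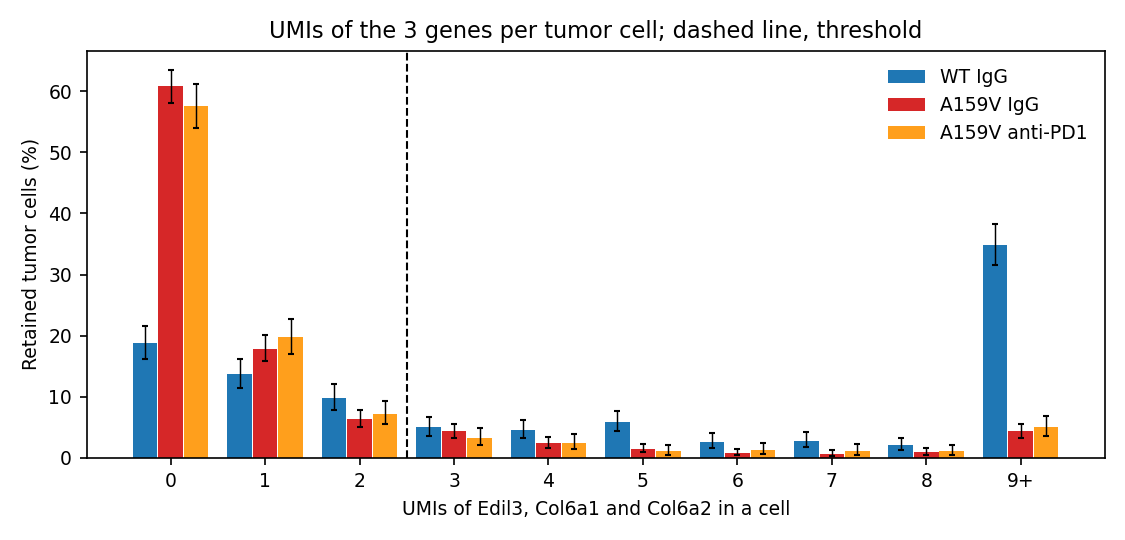
UMIs of Edil3, Col6a1 and Col6a2 per retained tumor cell (horizontal axis) against the percent of retained tumor cells of each library with that number (vertical axis), with exact binomial 95% intervals. The dashed line is the threshold of 3 UMIs. The last class, 9 or more, is open and held 34.8% of WT IgG cells, and 0 UMIs were seen in 18.8% of WT IgG cells and in 60.8% and 57.6% of A159V cells.

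The detection of each gene in members was as follows, and differences between genes are not read as differences in expression. Col6a1 had a UMI in 97.1% of WT IgG members, 93.4% of A159V IgG members and 87.2% of A159V anti-PD1 members. Col6a2 had one in 78.3%, 72.7% and 61.5%, and Edil3 in 55.6%, 32.8% and 29.9%. All 3 genes were detected together in 40.4%, 18.2% and 6.84% of members, and collagen VI without Edil3 in 44.4%, 67.2% and 70.1%. An Edil3 UMI was found in most members of WT IgG and in a minority of members in the A159V libraries. Edil3 without any collagen VI UMI was found in 8 of 475, 9 of 198 and 12 of 117 members.

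The collagen VI chains were next compared between libraries. Edil3 was at 109 CPM (104 to 114) in WT IgG, 23.1 CPM (19.7 to 27.0) in A159V IgG and 33.1 CPM (28.4 to 38.4) in A159V anti-PD1 members, and at 75.2 CPM in the 8 WT anti-PD1 members. Col6a1 was at 267 CPM (259 to 275) in WT IgG, 128 CPM (120.2 to 137) in A159V IgG and 116 CPM (107 to 126) in A159V anti-PD1, and at 42.0 CPM in WT anti-PD1. Col6a2 was at 119.6 CPM (114 to 125) in WT IgG, 53.2 CPM (48.0 to 58.9) in A159V IgG and 44.5 CPM (39.0 to 50.6) in A159V anti-PD1, and at 22.1 CPM in WT anti-PD1. All 3 were highest in WT IgG members, and these genes chose the members. Col6a3, which was not part of the rule, was at 113 CPM (108 to 119) in WT IgG, 91.1 CPM (84.2 to 98.4) in A159V IgG and 139.7 CPM (129.8 to 150.2) in A159V anti-PD1, and at 37.6 CPM in WT anti-PD1. In other tumor cells it was at 21.9, 17.5 and 24.5 CPM in WT IgG, A159V IgG and A159V anti-PD1. With 1 CPM added to each level, the log2 ratio in members, A159V IgG to WT IgG, was -0.31 (-0.44 to -0.19) for Col6a3, compared with -1.05 (-1.15 to -0.95) for Col6a1 and -1.15 (-1.31 to -1.0) for Col6a2. Col6a4, Col6a5 and Col6a6, the chains that can replace α3, were at or near 0, with at most 1.14 CPM in the members of the 3 libraries.

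Of the 14 genes for receptors and binding partners of collagen VI, 3 reached the 50 CPM needed for a comparison with WT IgG, namely Itgb1, Fn1 and Dcn. Itgb1, the β1 chain shared by the collagen-binding integrins, was at 322 CPM in WT IgG, 384 CPM in A159V IgG and 411 CPM in A159V anti-PD1 members and at 280.5, 371 and 389 CPM in other tumor cells. The α chains that pair with it to bind collagen were low, with Itga1 at 4.84, 4.54 and 4.73 CPM and Itga2, Itga10 and Itga11 at most 2.12 CPM. The anthrax toxin receptors Antxr1 and Antxr2, which bind collagen VI, were at 22.7, 22.8 and 25.0 CPM and at 35.9, 23.6 and 26.5 CPM. The NG2 proteoglycan gene Cspg4 was at or under 1.69 CPM. Of the partners of Edil3, Itgav, the αv chain, was at 88.7 CPM in WT IgG, 58.6 CPM in A159V IgG and 68.3 CPM in A159V anti-PD1 members, and its β partners Itgb3 and Itgb5 were at 0.242, 0.852 and 1.33 CPM and at 22.6, 29.9 and 22.0 CPM. Mfge8, the closest relative of Edil3, was at 41.7 CPM in WT IgG, 28.7 CPM in A159V IgG and 31.1 CPM in A159V anti-PD1 members. In other tumor cells Mfge8 was at 45.6, 34.3 and 38.0 CPM, so it was not higher in members. Edil3 was higher in members by the rule.

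Beyond the genes of the rule, members differed from other tumor cells by a short list of genes. Of 3106 genes with at least 50 CPM in members or other tumor cells of each library, 22 (0.708%) were at least 1.5-fold higher in members in all 3 libraries and 3 (0.0966%) were at least 1.5-fold lower. At 2-fold, 5 (0.161%) were higher and 0 lower. Taken 1 library at a time, 3.82% of 3484 genes were higher and 0.804% lower in WT IgG, 1.64% and 0.704% of 3411 in A159V IgG, and 1.69% and 0.471% of 3610 in A159V anti-PD1. Because members and other tumor cells were divided by genes that can vary together with these, the counts describe the division. The higher genes were Col6a3, Ccl7, Sparc, Ccl2, Fn1, Vcam1, Gsta2, Col5a1, Cav1, Hes1, Fgfr1, Sema3a, Igfbp4, Gng11, Dcn, Slc23a2, Casp4, Fstl1, Marcks, Ext1, Wls and Fos. The lower genes were Gadd45a, Prl2c3 and Snhg9. With 1 library fewer to satisfy, 36 genes were higher and 8 lower without WT IgG, 31 and 6 without A159V IgG, and 32 and 6 without A159V anti-PD1. Of the higher genes, Sparc, Col5a1, Dcn and Fstl1 were over 5 times higher in immune, stromal or endothelial cells of the same library. That stromal class had at least 2 Pdgfra UMIs and could hold cells of the tumor gate. In such cells outside the gate, Col6a3 was at 816 CPM in WT IgG, 492 CPM in A159V IgG and 503 CPM in A159V anti-PD1. Fn1 was at 1859, 1646 and 1740 CPM there and Ccl7 at 613, 302 and 277 CPM, all above members. Ccl2 was at 1162, 524 and 511 CPM, below members. Col6a3 in WT IgG and A159V IgG, and Fn1 in WT IgG, were over 5 times higher in these cells than in members. The mark of 5 times had not been applied against this class. The part of stray RNA in the levels of these genes was not tested.

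Col6a3, the α3 chain, had log2 ratios of members over other tumor cells of 2.32 (2.15 to 2.5) in WT IgG, 2.32 (2.17 to 2.47) in A159V IgG and 2.47 (2.32 to 2.61) for A159V anti-PD1. It was therefore higher where the other chains had been counted, at a near-equal ratio in the 3 libraries. In cells with no UMI of Tyrobp, Fcer1g, Cd3e, Dcn and Col3a1, which leaves out most cells with immune or fibroblast RNA, the ratio was 2.24 in WT IgG and 3.11 in A159V IgG, from 96 and 57 members. With at most 2 UMIs of the 12 fibroblast markers in a cell it was 2.5, 2.70 and 2.20 in the 3 libraries. Fn1, which encodes fibronectin, was at 243 CPM in WT IgG, 486 CPM in A159V IgG and 468 CPM in A159V anti-PD1 members and at 76.5, 222 and 195 CPM in other tumor cells. Its log2 ratios were 1.66, 1.13 and 1.26. Without UMIs of the 5 immune and fibroblast genes, the Fn1 ratio was 0.12 in WT IgG and 0.86 in A159V IgG, so in WT IgG the ratio of Fn1 lay near 0 in the cells without these UMIs. Sparc, a collagen-binding matricellular protein, was at 242 CPM in WT IgG, 171 CPM in A159V IgG and 131 CPM in A159V anti-PD1 members, with log2 ratios of 1.76, 1.67 and 1.24. Col5a1, the α1 chain of collagen V, had log2 ratios of 1.33, 1.09 and 0.97.

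Chemokine ligands of the receptor CCR2 were higher in members. Ccl2, which attracts monocytes, was at 1641 CPM (1622 to 1661) in WT IgG, 1127 CPM (1102 to 1152) in A159V IgG and 1556 CPM (1523 to 1590.4) in A159V anti-PD1 members. In other tumor cells Ccl2 was at 749, 437 and 627 CPM, below members in every library. Ccl7, its neighbor on the same chromosome, was at 236 CPM in WT IgG, 93.7 CPM in A159V IgG and 63.6 CPM in A159V anti-PD1 members and at 38.7, 10.8 and 13.1 CPM in other tumor cells. The log2 ratios were 1.13, 1.36 and 1.31 for Ccl2 and 2.58, 3.0 and 2.19 for Ccl7. With at most 2 fibroblast marker UMIs in a cell, the Ccl7 ratio in A159V anti-PD1 was 0.93, and it was 2.80 in WT IgG and 2.56 in A159V IgG. Cxcl1 and Cxcl10, which attract neutrophils and T cells, differed by less than 1.5-fold between members and other tumor cells, with log2 ratios of -0.086, 0.087 and 0.43 and of -0.21, 0.31 and 0.40. In cells thinned to 5000 UMIs and ordered by their UMIs of the 3 genes, WT IgG Ccl2 went from 873 CPM at 0 UMIs to 977, 1853, 1814 and 2765 CPM at 1, 2, 3 to 4 and 5 or more.

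Adhesion and signaling genes were also among those higher in members. Vcam1, an adhesion molecule for leukocytes, was at 136 CPM in WT IgG, 67.7 CPM in A159V IgG and 51.5 CPM in A159V anti-PD1 members, with log2 ratios of 0.99, 1.25 and 1.06, and at 0.31 in WT IgG cells without UMIs of the 5 immune and fibroblast genes. Cav1, the coat protein of caveolae, was at 102 CPM in WT IgG, 99.2 CPM in A159V IgG and 119 CPM in A159V anti-PD1 members, with log2 ratios of 1.57, 0.93 and 1.07. Hes1, a transcriptional repressor and Notch target, had log2 ratios of 1.22, 0.91 and 0.95, and Fgfr1, a fibroblast growth factor receptor, had 1.04, 0.82 and 0.86. Sema3a, a secreted guidance cue, had 0.81, 1.14 and 1.02, and Igfbp4, which binds insulin-like growth factors, had 1.40, 1.83 and 0.80. Gng11, a G protein γ subunit, had 0.83, 0.77 and 0.85. Gsta2, a glutathione transferase whose reads could be divided with near-identical family members, had 1.78, 1.17 and 0.98. The same sign in all 3 libraries was a condition for naming these genes.

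The genes lower in members included growth arrest and prolactin family genes. Gadd45a, which is induced by DNA damage and stress, was at 33.7 CPM in WT IgG, 84.9 CPM in A159V IgG and 62.3 CPM in A159V anti-PD1 members and at 58.3, 147 and 113 CPM in other tumor cells, with log2 ratios of -0.77, -0.79 and -0.85. Prl2c3, a proliferin whose reads cannot be cleanly told from those of Prl2c2, had log2 ratios of -1.43, -1.14 and -0.77. Prl2c2 was part of the rule that defined tumor cells and had -1.29, -0.90 and -0.41. The noncoding snoRNA hosts Snhg9, Zfas1 and Snhg3 had log2 ratios of -0.83, -0.68 and -0.67, of -0.49, -0.73 and -0.61 and of -0.54, -0.46 and -0.46. Odc1, the first enzyme of polyamine synthesis, was at 249 CPM in WT IgG, 156 CPM in A159V IgG and 149 CPM in A159V anti-PD1 members, with log2 ratios of -0.57, -0.66 and -0.61. Tinagl1, a matricellular glycoprotein, had -0.60, -0.51 and -0.61, and Wwc1, a Hippo pathway scaffold, had -0.70, -0.46 and -0.62. Zfas1, Snhg3, Odc1, Tinagl1 and Wwc1 were below 1.5-fold in at least 1 library.

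**Figure D3:**
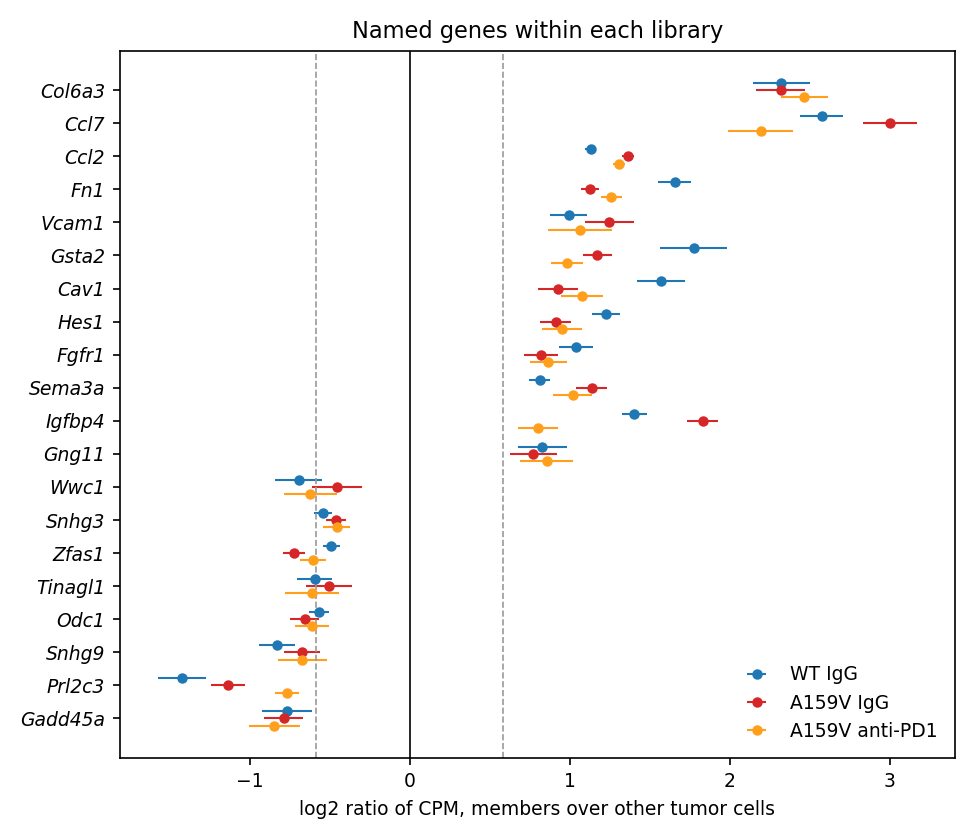
Log2 ratio of CPM in members over other tumor cells (horizontal axis) for the 12 named genes higher and the 8 named genes lower in members (vertical axis), in WT IgG, A159V IgG and A159V anti-PD1, with 95% counting intervals and dashed lines at 1.5-fold. Col6a3 lay between 2.32 and 2.47 in the 3 libraries. A shared side of 0 in all 3 libraries was a condition for naming a gene.

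The other genes that varied with the level of the 3 genes were examined with cells thinned to 5000 UMIs and ordered in 5 classes. Col6a3 went from 33.9 CPM at 0 UMIs to 61.2, 93, 117 and 263 CPM at 1, 2, 3 to 4 and 5 or more UMIs in WT IgG. Fn1 went from 92.2 to 151, 254, 299 and 448 CPM in the same classes. Prl2c2 was at 343, 260.2, 150.3, 195 and 46.7 CPM, while Rhox5 stayed between 958 and 1016 CPM. The WT IgG classes held 407, 128, 90, 88 and 111 cells, with a median depth of 36487 UMIs in the lowest class and 24456 in the highest. In A159V IgG, Col6a3 was at 21.7 CPM at 0 UMIs and 101 CPM at 2 UMIs, against 31.5 and 249 CPM for A159V anti-PD1, and these libraries had 9 and 2 cells in their highest classes. Over these 15 profiles of 2958 genes, Tceal9 was the gene whose level ran most like the sum of the 3 genes (Spearman rho, 0.979), followed by Fgfr1 and Ugp2 (0.975 each), Zbp1 (0.968), Col6a3 (0.964), Lpp (0.957), Ifi47 (0.954), S100a4 (0.95), Zeb2 and Sparc (0.946 each). The profiles share libraries, and the correlation is a description.

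Members with and without an Edil3 UMI were then set side by side. In WT IgG, 264 members had an Edil3 UMI and 211 did not. Col6a3 was at 133 CPM (125 to 140.1) with Edil3 and 87.9 CPM (81.2 to 95.1) without it. Ccl7 was at 171 CPM (163 to 179) with Edil3 and 322 CPM (309 to 336) without, and Hes1 at 213 CPM (204 to 223) and 334 CPM (320.2 to 347). In A159V IgG Col6a3 was at 117 CPM (103 to 131) with and 78.1 CPM (70.3 to 86.5) without Edil3, and in A159V anti-PD1 at 114 CPM (97.3 to 133) and 149 CPM (137 to 162). Ccl7 was at 101 CPM (88.8 to 115) and 89.8 CPM (81.4 to 98.8) in A159V IgG, and at 68.4 CPM (55.6 to 83.3) and 61.8 CPM (54.2 to 70.2) in A159V anti-PD1, and Hes1 was at 147 CPM (132 to 164) and 173 CPM (161 to 185), and at 96.7 CPM (81.4 to 114) and 142 CPM (131 to 155). Hes1 was lower with Edil3 in all 3 libraries, although its intervals overlapped in A159V IgG. The order for Col6a3 was opposite in A159V anti-PD1. For Ccl7 the order was not the same in WT IgG as in the A159V libraries, where the intervals overlapped. With 65 and 133 members in A159V IgG, Fn1 was at 613 CPM (582 to 646) with Edil3 and 422 CPM (403 to 441) without, and Ccl2 at 694 CPM (661 to 729) and 1346 CPM (1313 to 1379). In A159V anti-PD1, with 35 and 82 members, Fn1 was at 667 CPM (626 to 711) with Edil3 and 393 CPM (374 to 414) without, and Ccl2 at 1766 CPM (1699 to 1836) and 1477 CPM (1439 to 1516), so the order for Ccl2 was not the same in the 2 A159V libraries. In WT IgG, Fn1 was at 258 CPM with Edil3 and 223 CPM without, and Ccl2 at 1444 and 1905 CPM. Fn1 and Dcn, a fibroblast marker, were higher with Edil3 in all 3 libraries. Dcn was at 272 CPM (261 to 282) with and 199 CPM (188 to 209) without Edil3 in WT IgG. In A159V IgG it was at 194 CPM (177 to 213) and 97.7 CPM (89.0 to 107). In A159V anti-PD1 it was at 100.2 CPM (84.5 to 118) and 54.2 CPM (47.1 to 62.1). Members without Edil3 had to reach the threshold by collagen VI alone, which bears on the collagen levels.

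Genes of collagen processing and other matrix genes were then compared in members and other tumor cells. Of 22 genes for collagen folding and crosslinking, 9 reached 50 CPM in every library, and 1 of the 9, Sparc, passed 1.5-fold in all 3 libraries, where 0.708% of all genes did so upward and 0.0966% downward. Of the 9, 8 had a ratio to other tumor cells above 0 in all 3 libraries, against 31.7% of all genes, with the sizes below. Serpinh1, the collagen chaperone HSP47, was at 245 CPM in WT IgG, 262 CPM in A159V IgG and 254 CPM in A159V anti-PD1 members, with log2 ratios to other tumor cells of 0.86, 0.60 and 0.42. Plod2, a lysyl hydroxylase of collagen, had 0.90, 0.43 and 0.57, and P4ha1, a prolyl hydroxylase, had 0.36, 0.34 and 0.28. Among other matrix genes, Spp1, which encodes osteopontin, was at 3799 CPM in WT IgG, 2655 CPM in A159V IgG and 2604 CPM in A159V anti-PD1 members, with log2 ratios of 0.56, 0.90 and 0.59. Plaur, the urokinase receptor, had -0.75, -0.50 and -0.43. Mmp14, a membrane-bound collagenase, had 1.10, 0.58 and 0.49. Of the mesenchymal regulators, Snai1 was at 49.2 CPM in WT IgG, 58.6 CPM in A159V IgG and 56.4 CPM in A159V anti-PD1 members, with log2 ratios of 1.26, 1.45 and 1.19, and Twist1 had -0.019, 0.13 and 0.30. Snai1 fell short of 50 CPM in WT IgG and was not among the 12 mesenchymal genes tested in every library. Of those 12, 0 passed 1.5-fold in all 3 libraries in either direction. Vim, the intermediate filament of mesenchymal cells, had 0.40, 0.55 and 0.55. Of 22 epithelial genes, 1, Tjp1, reached 50 CPM. None of the 14 S phase genes or 17 G2 and M phase genes tested passed 1.5-fold in all 3 libraries. In WT IgG the 14 S phase genes all had a ratio below 0, against 50.1% of all genes, with a median log2 ratio of -0.23, and they made up a median of 0.108% of the UMIs of a member and 0.155% of those of another tumor cell. In A159V IgG 8 of 15 S phase genes and in A159V anti-PD1 10 of 15 had a ratio below 0, with medians of -0.0019 and -0.066.

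The second question was how members of A159V tumors differed from members of WT tumors under IgG. Of 3631 genes with at least 50 CPM in the members of either library, 36 (0.991%) were at least 2-fold higher in A159V IgG members and 88 (2.42%) at least 2-fold lower. The median log2 ratio of all genes tested was 0.083. Of the genes past 2-fold, 5 of the higher and 10 of the lower were over 5 times higher in immune, stromal or endothelial cells of the same library and are not named below, except Il33, Fyb and Ccl5. The lower genes include Edil3, Col6a1 and Col6a2, which the rule used. Without a second tumor or clone per genotype, these differences are between 2 libraries.

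Adam2, a surface protein known from sperm, had the highest ratio. It was at 12.4 CPM (10.8 to 14.2) in WT IgG, 78.2 CPM (71.8 to 85.0) in A159V IgG and 62.5 CPM (55.9 to 69.6) in A159V anti-PD1 members, and its log2 genotype ratio, A159V IgG to WT IgG, was 2.56 (2.35 to 2.78). Col5a3, the α3 chain of collagen V, was at 34.5 CPM in WT IgG, 133 CPM in A159V IgG and 194 CPM in A159V anti-PD1 members, with a ratio of 1.91 (1.77 to 2.06). Il1rl1, the receptor of interleukin 33, was at 163 CPM in WT IgG, 536 CPM in A159V IgG and 776 CPM in A159V anti-PD1, with a ratio of 1.71 (1.64 to 1.78). Of these 3 genes, Adam2, Col5a3 and Il1rl1, all were higher in the members of both A159V libraries than in WT IgG, which was a condition for naming them. Slpi, a secreted inhibitor of serine proteases, was at 173 CPM in WT IgG, 529 CPM in A159V IgG and 621 CPM in A159V anti-PD1, with a ratio of 1.61, and Wfdc2, of the same family of inhibitors, was at 159.7 CPM in WT IgG, 410.0 CPM in A159V IgG and 361 CPM in A159V anti-PD1, with a ratio of 1.36. The glutathione transferases Gsta4 and Gsta2 had ratios of 1.85 and 1.76. Plxdc1, a plexin-domain receptor of tumor endothelium, had a ratio of 1.89, Prl2c3 had 1.79, and Cenps, a kinetochore and DNA repair protein, had 1.48. The zinc finger genes Zfp978 and Zfp985 had ratios of 1.86 and 1.55. In other tumor cells these 12 genes were also higher in A159V IgG, with log2 ratios from 0.91 for Wfdc2 to 2.52 for Adam2.

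The lowest ratios belonged to genes that were nearly absent from A159V members. Tafa1, a secreted chemokine-like protein of the nervous system, was at 97.4 CPM (92.7 to 102) in WT IgG, 1.70 CPM (0.880 to 2.97) in A159V IgG and 2.84 CPM (1.59 to 4.68) in A159V anti-PD1 members, a log2 ratio of -5.19 (-5.71 to -4.67). Plet1, a surface protein of epithelial progenitors, was at 66.7 CPM in WT IgG, 1.56 CPM in A159V IgG and 1.51 CPM in A159V anti-PD1, a ratio of -4.72 (-5.25 to -4.20). Csmd3, a large membrane protein, was at 52.9 CPM in WT IgG, 5.68 CPM in A159V IgG and 0.947 CPM in A159V anti-PD1, a ratio of -3.01. The 3 genes were low in the members of both A159V libraries, and Tafa1 was at 2.21 CPM and Plet1 listed at 0 in the 8 WT anti-PD1 members, of which 6 were predicted doublets. Among transcription factors, Klf4, a regulator of epithelial differentiation and pluripotency, was at 117 CPM in WT IgG, 24.3 CPM in A159V IgG and 30.1 CPM in A159V anti-PD1, a ratio of -2.22 (-2.44 to -2.00). Sox9, a factor of progenitor cells and cartilage, was at 270.4 CPM in WT IgG, 66.3 CPM in A159V IgG and 98.1 CPM in A159V anti-PD1, a ratio of -2.01 (-2.15 to -1.88). Zfhx3 and Nr4a2 had ratios of -2.33 and -2.19. S100a4, a calcium-binding protein of mesenchymal cells, was at 2049 CPM in WT IgG, 446 CPM in A159V IgG and 249 CPM in A159V anti-PD1, a ratio of -2.20. Kitl, the ligand of KIT, was at 170.2 CPM in WT IgG, 42.9 CPM in A159V IgG and 64.2 CPM in A159V anti-PD1, a ratio of -1.96. Pde4d, a cyclic AMP phosphodiesterase, had -2.19, Gfod1 had -1.99 and Cdh13, a cadherin with a lipid anchor, had -1.89. The ratios of Tafa1 and Plet1 depend on the 1 CPM added to each level, and that of Tafa1 was -3.20 with 10 CPM added.

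**Figure D4:**
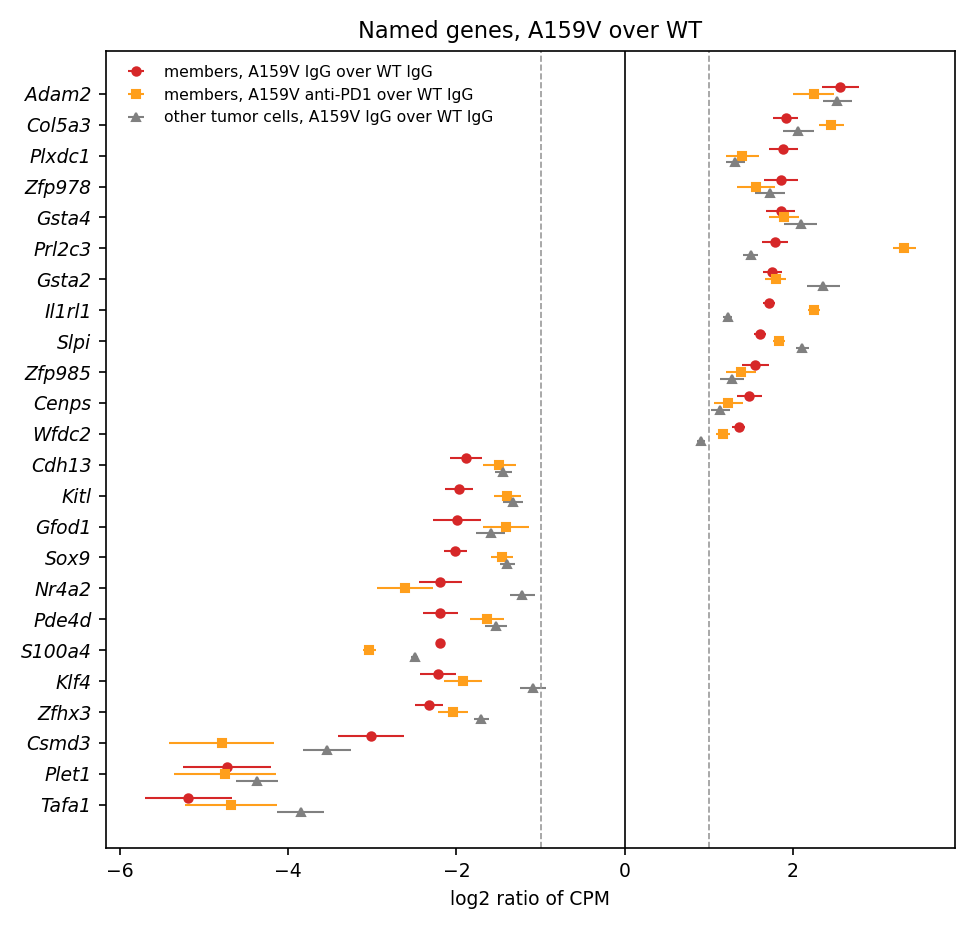
Log2 ratio of CPM, A159V over WT IgG (horizontal axis), for the 12 named genes higher and 12 lower in A159V members (vertical axis), with 95% counting intervals and dashed lines at 2-fold. Red circles are members of A159V IgG, orange squares members of A159V anti-PD1 and grey triangles other tumor cells of A159V IgG. A shared sign in both member series was a condition for naming these genes, and other tumor cells had the same sign. Klf4 was at -2.22 in members and -1.09 in other tumor cells.

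To see where members differed from the cells most like them, the genotype ratio (log2, A159V IgG to WT IgG) of other tumor cells was subtracted from that in members. Of 3758 genes, the difference was at most -1 for 8 (0.213%) and at least 1 for 0, and with a size of 1.5-fold it was negative for 38 (1.01%) and positive for 9 (0.239%). The 8 genes were Edil3, Il33, Tafa1, Fyb, Klf4, Lgals3, Ramp2 and Ereg. Lgals3, which encodes galectin-3, a lectin that binds matrix glycoproteins, was at 874 CPM in WT IgG, 507 CPM in A159V IgG and 635 CPM in A159V anti-PD1 members and at 518, 658 and 677 CPM in other tumor cells. Its difference was -1.13 (-1.19 to -1.06), so it was highest in WT IgG members. Klf4 was at 117 CPM in WT IgG members and 45.3 CPM in other tumor cells of that library, against 24.3 and 20.8 CPM in A159V IgG, a difference of -1.14 (-1.40 to -0.87). Tafa1 had a difference of -1.34 (-1.93 to -0.75) and Ramp2, a coreceptor for calcitonin-family peptides, had -1.01 (-1.32 to -0.71). Il33, an alarmin cytokine, was at 27.8 CPM in WT IgG, 145 CPM in A159V IgG and 235 CPM in A159V anti-PD1 members and at 4.21, 68.9 and 55.0 CPM in other tumor cells, a difference of -1.40 (-1.76 to -1.04). Il33 was therefore higher in members in all 3 libraries, and its ratio between genotypes was smaller in members, from a level of 4.21 CPM in WT IgG other tumor cells. Fyb, an adaptor of hematopoietic cells, had a difference of -1.20 (-1.61 to -0.80), and Ereg, an EGF receptor ligand, had -1.0 (-1.31 to -0.70). Il33 and Fyb were over 5 times higher in another cell class of the same library, and the part of stray RNA in their levels was not tested. Edil3, a gene of the rule, had -1.43 (-1.89 to -0.96).

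Gene lists were described by the number of their tested genes past 1.5-fold, where the shares over all genes were 5.18% higher and 8.01% lower in A159V IgG members. Of 13 mesenchymal genes tested, 7 were lower and 0 higher, with a median log2 ratio of -0.62. Vim was at 2783 CPM in WT IgG, 1345 CPM in A159V IgG and 1513 CPM in A159V anti-PD1 members, Lgals1, which encodes galectin-1, was at 2755 CPM in WT IgG, 1445 CPM in A159V IgG and 1261 CPM in A159V anti-PD1, and Cd44, the hyaluronan receptor, was at 414 CPM in WT IgG, 252 CPM in A159V IgG and 409 CPM in A159V anti-PD1. Snai1 had a ratio of 0.25 and Twist1 of 0.38, so these transcription factors of the mesenchymal state were not among the lower genes, which were Vim, Zeb2, S100a4, S100a6, Axl, Cd44 and Lgals1. Of 5 chemokines tested, Ccl7 and Ccl5 were lower, and the median was -0.54. Ccl5 was at 114 CPM in WT IgG, 35.9 CPM in A159V IgG and 5.68 CPM in A159V anti-PD1 members and was over 5 times higher in another cell class, and Ccl2 had a ratio of -0.54 (-0.58 to -0.51). Of 15 genes of MHC class I presentation, 14 had a ratio below 0, against 41.4% of all genes, and 1, Tapbp, passed 1.5-fold, with a median of -0.39. H2-K1 was at 2576 CPM in WT IgG, 1869 CPM in A159V IgG and 2003 CPM in A159V anti-PD1 members and B2m at 1522 CPM in WT IgG, 1126 CPM in A159V IgG and 1316 CPM in A159V anti-PD1. Of 17 genes of glycolysis and hypoxia, 16 had a ratio above 0, against 58.6% of all genes, and 3 passed 1.5-fold, namely Pfkp, Hif1a and Hk2, with a median of 0.27. Hk2, which commits glucose to glycolysis, was at 146 CPM in WT IgG, 221 CPM in A159V IgG and 267 CPM in A159V anti-PD1 members. Of 15 S phase genes, 1, Rrm1, a subunit of ribonucleotide reductase, was higher, with a median of 0.39, and of 21 G2 and M phase genes 2, Bub1 and Hmmr, were higher, with a median of 0.29. Of 12 genes for collagen folding, 1, P4ha2, was higher, with a median of -0.0084. In other tumor cells the ratios were -1.20 for Vim, 0.65 for Hk2 and -0.45 for H2-K1, close to the -1.05, 0.59 and -0.46 in members.

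Matrix genes differed in direction between genotypes. Fn1 had a log2 genotype ratio of 1.0 (0.93 to 1.06) in members and 1.52 in other tumor cells, whereas Timp2, an inhibitor of metalloproteinases, had -1.20 (-1.31 to -1.09). Of 8 other matrix genes tested, 2 were higher, Fn1 and Sdc1, and 1 lower, Lamc1, a laminin chain at -0.63 (-0.75 to -0.50). Sdc1, a syndecan, had 1.14 (0.95 to 1.33), and Spp1 -0.52 (-0.54 to -0.49). Dcn had -0.88 (-0.98 to -0.78), and the fibroblast marker sum was lower in A159V IgG members as given above. Rac1, the edited gene, was at 441 CPM (431 to 451) in WT IgG, 421 CPM (406 to 437) in A159V IgG and 400.1 CPM (383 to 418) in A159V anti-PD1 members, with a ratio of -0.066 (-0.13 to -0.0049), and the substitution itself cannot be read from counts of 3′ ends. Of 11 tested genes of the Rac1 module of GTPases, exchange factors and actin regulators, 1 passed 1.5-fold, Vav3, an exchange factor, at 56.2 CPM in WT IgG, 30.8 CPM in A159V IgG and 38.1 CPM in A159V anti-PD1. Cdc42, a related GTPase, had a ratio of 0.48. Of 10 genes that mark the tumor line, 4 were higher, Prl2c2, Prl2c3, Igf2bp2 and Tnfrsf12a, and 4 lower, Tm4sf1, Hmga1, S100a6 and Lgals1. Igf2bp2, an RNA-binding protein, had a ratio of 1.16 (1.0 to 1.32) and Hmga1, a chromatin protein, -0.77 (-0.93 to -0.60). Of 13 type I interferon-stimulated genes, 1, Isg15, was higher at 0.69 (0.64 to 0.73), after the cells highest in Ifit1, Ifit3 and Rsad2 had been left out, and of 5 genes of TGF-β signaling none passed 1.5-fold. Of 6 sphingolipid enzymes tested, 1 passed 1.5-fold, B4galt5, the lactosylceramide synthase, with a ratio of 0.68 (0.53 to 0.82) and levels of 52.6 CPM in WT IgG, 84.6 CPM in A159V IgG and 114 CPM in A159V anti-PD1.

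The third question was how members of A159V tumors differed with anti-PD1. Of 3604 genes tested, 10 (0.277%) were at least 2-fold higher in A159V anti-PD1 members than in A159V IgG members and 2 (0.0555%) at least 2-fold lower, with a median log2 ratio of 0.054. The higher genes were Cxcl9, Gbp2, Nos2, Prl2c3, Iigp1, Gbp7, Socs3, Irf1, Mfhas1 and Gm42418, most of which are known to be induced by interferon gamma. The lower genes were Bbs2 and Myl7. The collagen VI chains lay under 2-fold, with Col6a3 at 0.61 (0.46 to 0.76), Col6a1 at -0.14 (-0.29 to 0.0017) and Col6a2 at -0.25 (-0.48 to -0.023).

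Cxcl9, a chemokine for CXCR3 on T cells, was at 24.1 CPM (21.8 to 26.6) in WT IgG, 21.3 CPM (18.0 to 25.0) in A159V IgG and 75.9 CPM (68.7 to 83.7) in A159V anti-PD1 members, and its log2 ratio of A159V anti-PD1 over A159V IgG was 1.79 (1.53 to 2.05). Gbp2, a guanylate-binding protein of cell-autonomous defense, was at 99.1 CPM (94.3 to 104) in WT IgG, 48.1 CPM (43.1 to 53.5) in A159V IgG and 166 CPM (155 to 177) in A159V anti-PD1, a ratio of 1.76 (1.59 to 1.94). Iigp1, an immunity-related GTPase, was at 111 CPM in WT IgG, 86.6 CPM in A159V IgG and 219 CPM in A159V anti-PD1, a ratio of 1.33 (1.19 to 1.47). All 3 genes were highest in A159V anti-PD1. Irf1, an interferon-induced transcription factor, was at 138 CPM in WT IgG, 102 CPM in A159V IgG and 210.2 CPM in A159V anti-PD1, a ratio of 1.03 (0.90 to 1.16). Nos2, the inducible nitric oxide synthase, was at 23.3 CPM in WT IgG, 17.2 CPM in A159V IgG and 52.4 CPM in A159V anti-PD1, a ratio of 1.56, and Socs3, a feedback inhibitor of cytokine signaling, was at 37.4 CPM in WT IgG, 24.0 CPM in A159V IgG and 52.8 CPM in A159V anti-PD1, a ratio of 1.11. Gbp7 had a ratio of 1.14 and Prl2c3 of 1.54. In the 8 WT anti-PD1 members Cxcl9 was at 122 CPM and Gbp2 at 462 CPM. In other tumor cells the same ratios were 1.80 for Cxcl9, 1.57 for Gbp2, 1.49 for Iigp1 and 0.75 for Irf1, so other tumor cells differed in the same direction by a like amount.

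Of the 20 genes of interferon gamma signaling, 10 were tested, 8 were at least 1.5-fold higher with anti-PD1 and 0 lower, where the shares over all genes were 1.97% higher and 0.444% lower. Their median log2 ratio was 1.01. Jak1 and Gbp3 were below 1.5-fold, with Jak1 at 0.15 (-0.01 to 0.30) and Gbp3 at 0.54 (0.36 to 0.73). Of 16 genes of MHC class I presentation, 15 had a ratio above 0, against 58.3% of all genes, and 2, Nlrc5 and Tapbp, passed 1.5-fold, with a median of 0.26. Nlrc5, the transactivator of MHC class I genes, was at 61.1 CPM in WT IgG, 43.3 CPM in A159V IgG and 86.3 CPM in A159V anti-PD1, a ratio of 0.98 (0.77 to 1.19). Type I interferon-stimulated genes did not share this pattern, with 0 of 12 past 1.5-fold and a median of -0.025, although the cells highest in 3 of them had been left out by the rule. Isg15 was at 554 CPM in WT IgG, 891 CPM in A159V IgG and 679 CPM in A159V anti-PD1 members, a ratio of -0.39. Of 5 chemokines tested, 1, Cxcl9, was higher. The genotype ratio of the interferon gamma list, A159V IgG over WT IgG, had a median of -0.24 over 8 tested genes, with 1, Gbp2, past 1.5-fold and lower at -1.03 (-1.19 to -0.86). Compared with WT IgG members, A159V anti-PD1 members had ratios of 0.74 for Gbp2, 0.98 for Iigp1 and 0.61 for Irf1, a comparison across both genotype and treatment.

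**Figure D5:**
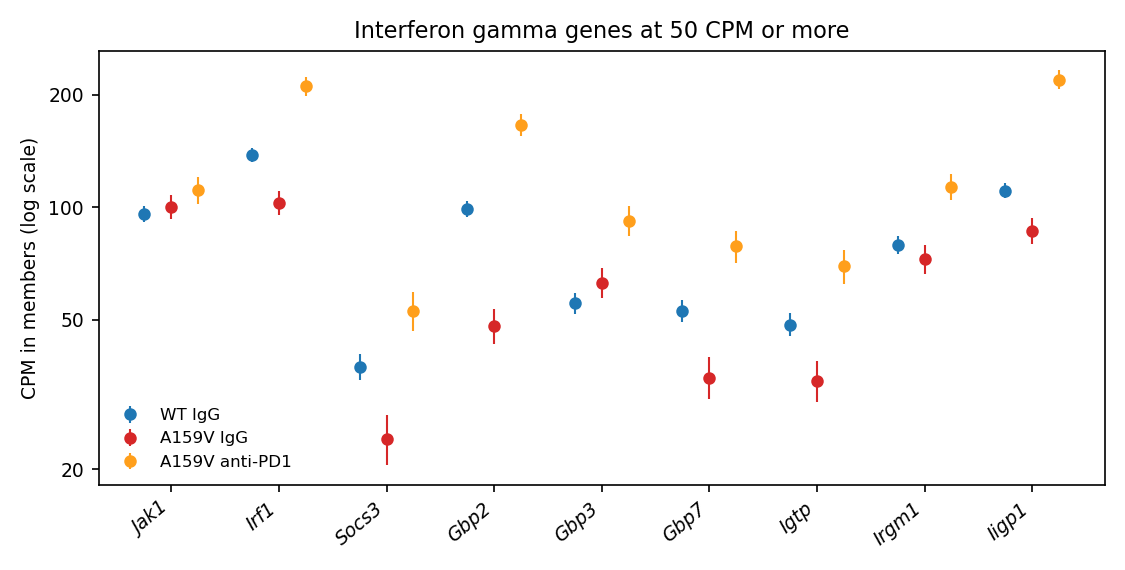
CPM in members on a log scale (vertical axis) for 9 of the 10 tested genes of interferon gamma signaling (horizontal axis). The libraries are WT IgG, A159V IgG and A159V anti-PD1, with exact Poisson 95% intervals. A159V anti-PD1 was the highest for all 9 genes, with Gbp2 at 166 CPM against 48.1 CPM in A159V IgG and 99.1 CPM in WT IgG.

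Among the other lists with anti-PD1, Col6a3 and Sdc1 passed 1.5-fold upward, at 0.61 (0.46 to 0.76) and 0.60 (0.41 to 0.79), and Dcn downward at -0.95 (-1.13 to -0.78). Of 13 mesenchymal genes, Cd44 was higher at 0.70 and S100a4 lower at -0.84. No gene passed 1.5-fold among the 10 for collagen folding, 6 proteases and inhibitors, 6 of TGF-β signaling, 10 of the Rac1 module, 18 of glycolysis and hypoxia, 6 sphingolipid enzymes, 15 of S phase and 23 of G2 and M phase.

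Bbs2, a ciliary trafficking protein, had the lowest ratio with anti-PD1. It was at 17.2 CPM (15.2 to 19.3) in WT IgG, 52.7 CPM (47.4 to 58.3) in A159V IgG and 8.90 CPM (6.54 to 11.8) in A159V anti-PD1 members, a log2 ratio of -2.44 (-2.84 to -2.04), so A159V IgG stood above both other libraries. Myl7, an atrial myosin light chain, was at 31.1 CPM in WT IgG, 58.0 CPM in A159V IgG and 22.0 CPM in A159V anti-PD1, a ratio of -1.36 (-1.65 to -1.08), and also stood highest in A159V IgG. The next genes in rank were under 2-fold, with S100a4 at -0.84, Gdf15, a stress-induced cytokine, at -0.80, the histone gene Hist1h2ap at -0.77, Bcar3 at -0.69, Igfbp4 at -0.66 and Phgdh, the first enzyme of serine synthesis, at -0.64. Col3a1, a fibroblast marker that did not reach 50 CPM in either A159V library, was at 80.9 CPM in WT IgG members. It was at 44.3 CPM in A159V IgG and 15.3 CPM in A159V anti-PD1 members. The part of fibroblast RNA in these differences was not tested beyond the alternatives. The ratio of S100a4 in other tumor cells was -0.0046, against -0.84 in members, and the difference between these ratios was not tested.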

How the data were processed

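Dissociated MC38 tumors were profiled by droplet 3′ scRNA-seq in 4 libraries, 1 for each group. The authors deposited filtered gene-by-cell matrices of raw UMI counts, made per the file headers with Cell Ranger 7.2.0 (the submitters' processing notes name 5.0.1) on mm10, with intronic reads counted, per the study's methods. No normalization had been applied, and the authors' removal of ambient RNA (decontX) and of doublets (DoubletFinder) is not in these counts. Because introns were counted, differences between genes in level or detection are not read as differences in expression.

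The members, gene lists and measures were chosen with earlier results of these data known. Each gene's counts were added up within a class and expressed as CPM, and log2 ratios were taken with a pseudocount of 1 CPM. A class needed 50 cells and a gene 50 CPM in either class compared, and a gene was called at 2-fold between libraries and at 1.5-fold within each. Intervals are exact Poisson for CPM, exact binomial (Clopper-Pearson) for fractions, Katz for ratios of fractions and by the delta method for log2 ratios, at 95%, and cover counting error only. With 1 library per group, no test was made. Thinning drew 5000 UMIs from each cell (seed 1). Doublets were scored against simulated doublets and left out only as an alternative.

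Genes were named by rank: the 12 highest and 8 lowest smallest ratios of members over other tumor cells, the 12 highest and lowest ratios of A159V IgG over WT IgG with the same sign in A159V anti-PD1, and the 8 highest and lowest with anti-PD1. Genes of the rule, technical genes and genes over 5 times higher in immune, stromal or endothelial cells were passed over. Other genes are examples of the fixed lists or were chosen after their values were seen. Immune cells had at least 2 Ptprc UMIs. All per-sample columns were used. Gene positions came from GENCODE M21 and promoters from RefSeq. Python 3.11.15, numpy 2.4.6, scipy 1.17.1, pandas 2.3.3, scikit-learn 1.9.0 and matplotlib 3.10.9 were used, and the ratios were tested on simulated data. Alternatives changed the threshold, gate, depth, normalization, pseudocount, filter and fold, and 2 of them were chosen after seeing the data. Some genes of the lists are counted in them and not reported here by name.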

Additional observations from a re-analysis of the deposited data

Results flagged for a closer look

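Cells that the rule had left out also reached 3 UMIs of the 3 genes together. They did so more often than immune cells of the same library when all UMIs were counted, but they were several times deeper than immune cells. Among the tumor cells of WT IgG that were left out for their interferon genes, 67 of 93 (72.0%) had at least 3 UMIs of Edil3, Col6a1 and Col6a2, at a median depth of 29486 UMIs, against 16.4% of immune cells at 7666 UMIs. In A159V IgG 29 of 142 such cells (20.4%, 14.1 to 28.0) did so and in A159V anti-PD1 12 of 88 (13.6%, 7.25 to 22.6), where the interval overlapped that of immune cells (5.68 to 8.77). Among cells that met the tumor gate but had a Pdgfra UMI, 330 of 399 (82.7%) did so in WT IgG at a median depth of 34083 UMIs. In A159V IgG 143 of 615 such cells (23.3%) did so at 35326 UMIs, against 11.4% of immune cells at 8838 UMIs. In A159V anti-PD1 169 of 677 (25.0%) did so at 45267 UMIs, against 7.11% of immune cells at 7240 UMIs. With cells with Pdgfra UMIs allowed, members made up 763 of 1173 tumor cells in WT IgG, 331 of 1883 in A159V IgG and 272 of 1371 in A159V anti-PD1.

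All cells were then thinned to 5000 UMIs, a step chosen after seeing the data. Thinned cells with Pdgfra UMIs reached 3 UMIs in 55.1% (50.1 to 60.1) of WT IgG, 4.23% (2.78 to 6.13) of A159V IgG and 2.81% (1.70 to 4.35) of A159V anti-PD1. The cells left out for their interferon genes did so in 32.3% (22.9 to 42.7), 2.11% (0.438 to 6.05) and 2.27% (0.276 to 7.97), and immune cells in 8.14% (6.64 to 9.85), 3.92% (2.5 to 5.83) and 2.49% (1.66 to 3.58). At equal depth the left-out cells thus stood above immune cells in WT IgG, and in both A159V libraries the intervals overlapped those of immune cells.

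No gene was at least 1.5-fold higher in members than in other tumor cells of WT IgG and as much lower in both A159V libraries, or the reverse, and 0 genes ran in opposite directions by that size between genotypes in members and in other tumor cells.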

How the results depend on the processing

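No paired analysis was possible because each group had 1 library. Over 9 results and 22 settings, 86 of 135 values stayed close to the reported value and 49 moved. The fraction of members in A159V IgG over WT IgG was 0.171 with 5 UMIs in place of 3 and 0.0908 after thinning, and that of A159V anti-PD1 over A159V IgG, 1.03 as reported, was 0.780 after thinning and ranged from 0.780 to 1.17, on both sides of 1. In the order higher and lower, A159V IgG over WT IgG gave 164 and 225 genes at a minimum of 10 CPM, 480 and 446 with no minimum and 188 and 291 at 1.5-fold. A159V anti-PD1 over A159V IgG gave 29 and 20, 94 and 153, and 71 and 16 at these settings. It gave 6 higher genes with interferon-high cells kept or with a pseudocount of 10 CPM, and 5 with cells with Pdgfra UMIs allowed. It gave 10 lower genes with 5 UMIs, 1 with a gate of 4 and 4 UMIs or without doublets, 7 by mean CPM per cell, 5 with cells with Pdgfra UMIs and 6 with at most 2 fibroblast UMIs. Members over other tumor cells gave 86 and 11 genes at 10 CPM, 179 and 49 with no minimum, 5 and 0 at 2-fold, and 309 and 114 after thinning, which left 1 library. The lower genes there were 7 with 5 UMIs, 5 with no UMI of Tyrobp, Fcer1g, Cd3e, Dcn and Col3a1 (2 libraries), 6 by mean CPM and 5 against cells with 0 UMIs. Leaving out 1 library gave 31 to 36 higher and 6 to 8 lower genes, since fewer libraries had to be passed. The 8 genes whose genotype ratio differed by class became 13 with 5 UMIs, by mean CPM or with at most 2 fibroblast UMIs, 26 with no UMI of the 5 genes, 5 with a pseudocount of 10 CPM, 48 at 10 CPM, 288 with no minimum, 47 at 1.5-fold and 19 with cells with Pdgfra UMIs. A minimum of 50 CPM and 117 to 475 members limit these counts. Beyond the minimum level, fold size and number of libraries, the cause was not tested. Of 668 recomputed values of 49 named genes, 0 changed direction and 151 moved. A pseudocount of 10 CPM or leaving out 1 library could not have changed a direction. The genes had also been named for their size in these cells, so the 0 is no measure of how firm they are. WT anti-PD1, with 8 members, gave no comparison.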
